A study of Trichoderma reesei with 11 samples.

Results

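The interaction of a kinase deletion with light was measured by RNA sequencing of Trichoderma reesei mycelium. This fungus grows as branched threads and is used to produce cellulases. The contrast sets the strain difference in constant light against the strain difference in constant darkness, (Δ57513_LL - mus53_LL) - (Δ57513_DD - mus53_DD), for every gene ID in the deposited count table. All 11 of 11 libraries enter it. The groups were the deletion strain in light (3 libraries), its parent in light (3), the deletion strain in darkness (3) and, with 2, the parent in darkness. The parent is QM6a with mus53 deleted, and the deletion strain carries the mus53 deletion as well as that of TR_57513, so both strains lack mus53, a gene of non-homologous end joining whose loss favours targeted gene replacement. Every culture grew for 96 h at 28 °C in minimal medium on cellulose. The labels describe a single deletion strain and no strain in which the gene was put back. A positive interaction means that a gene ID was higher in the deletion strain, relative to the parent, in light than in darkness.

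The series title names TR_57513 as a MAP kinase kinase kinase of the HOG pathway. In this cascade a MAPKKK phosphorylates a MAPKK, which phosphorylates a MAP kinase that enters the nucleus and changes transcription, and in budding yeast high osmolarity is the best known trigger. In the mould Aspergillus nidulans the same cascade also carries light signals from a phytochrome, and in Neurospora crassa it is linked to the circadian clock. Light is known to alter transcription of cellulase genes in Trichoderma reesei.

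Library totals were 8924252 to 10184280 counts for the deletion strain in light, 8020351 to 8770166 for the parent in light, 13790024 to 18278047 in the dark deletion libraries and 15175573 to 16308391 in the dark parent libraries. In the labels, the numbers of the light libraries and those of the dark libraries form separate runs. Each run holds both strains, so a shift shared by the strains of a run cancels in the contrast, while one that differed between strains does not. No within-run value of the interaction can be had, because each run holds a single light condition. The libraries farthest from their groups were deletion replicate 1 in darkness, with a root mean square deviation of 0.53 on the log2 scale, and parent replicate 1 in light, with 0.49, against 0.21 to 0.40 in the other libraries. The median SD between replicates, on the log2 scale, was 0.12 for the deletion strain in light, 0.18 for the parent in light, 0.20 for the deletion strain in darkness and 0.16 for the parent in darkness. The 10879 gene IDs stand in the file without names, and 0 of them matched the available reference gene table. The targeted gene could therefore not be read by its ID, no pathway genes could be listed, and the mycelium label could not be set against marker genes. One tested gene ID, TrA1495C, had at least 20 CPM (read counts scaled to a common library size) in every parent library and under 0.5 CPM in every deletion library, and none showed the converse. TrA1495C was singled out after its values were seen, and its interaction did not pass (edgeR adjusted p = 0.289). Its deletion libraries held 0 CPM except replicate 1 in darkness, with 0.12 CPM. The test therefore cannot tell whether its strain difference depended on light.

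The strain difference depended on the light condition for 975 of the 9040 tested gene IDs, 10.8%, at an adjusted p under 0.05 in edgeR's quasi-likelihood test. It was more positive in light for 485 gene IDs (5.37%) and more negative for 490 (5.42%). In the first set the median log2 strain effect was 0.98 in light and -0.23 in darkness, and in the second it was -0.76 in light and 0.53 in darkness. The log2 interaction was at least 1 in size for 311 positive and 336 negative gene IDs, at least 2 for 156 and 172, and at least 3 for 76 and 90. Over all tested gene IDs the median interaction was -0.02, with quartiles at -0.43 and 0.31, and 48.5% were positive. Across the scalings tried, the median lay between -0.05 and 0.03. The labels do not say whether replicates were separate cultures, and these p-values then measure only a spread between samples that may be technical. In RNA from whole mycelium, a different share of cell types and a different amount of RNA per cell cannot be told apart.

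All 975 passing gene IDs were completely separated between the conditions, that is, each of the 9 log2 differences between a deletion and a parent library in light lay beyond each of the 6 such differences in darkness. Among all tested gene IDs, 2298 (25.4%) were separated in this way, 1147 towards positive values and 1151 towards negative ones. Separation is read from the same libraries as the test, so it is a description and no independent support. A further 1234 gene IDs had a log2 interaction of at least 1 in size and did not pass. At an unadjusted p under 0.05 there were 2461 gene IDs, 27.2% of those tested. Of the passing gene IDs, 31 had a group with 3 counts or fewer in all, where the fitted size depends on the prior count, and 859 had a mean of at least 1 CPM in every group.

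Omitting parent replicate 1 in darkness left 386 passing gene IDs. Omitting a deletion library in light left 617 (replicate 1), 552 (replicate 2) or 549 (replicate 3), and omitting parent replicate 2 in light left 595. DESeq2 called 1532. Leaving out deletion replicate 1 in darkness, the library farthest from its group, gave 1175. Omitting either parent library in darkness leaves 1 library in that group, and the spread then comes from the other groups alone. The total fell far less on omission of parent replicate 2 in darkness than on omission of replicate 1, so it depended on which library was left out. Such an omission does not show whether the library left out was unusual.

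**Figure D1:**
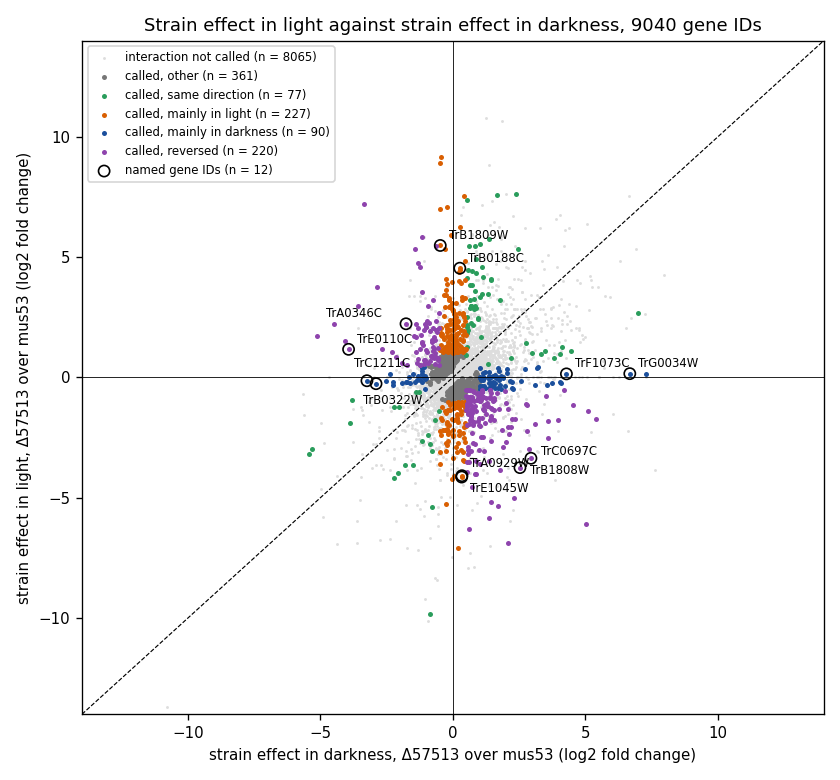
Log2 fold change of Δ57513 over mus53 in light (y axis) and in darkness (x axis) for each of the 9040 tested gene IDs, with the dashed line where both are equal. Coloured points are the 975 gene IDs past the interaction threshold, by the shape of their strain effects, and black rings mark the 12 named gene IDs.

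Set against the mean of the 4 groups, the 485 gene IDs with a positive interaction had median log2 levels of 0.26, 0.27 and 0.35 in the deletion libraries in light and of -0.53, -0.57 and -0.585 in the parent libraries in light. In darkness the medians were -0.19, 0.04 and 0.07 in the deletion libraries and 0.42 and 0.18 in the parent libraries. The 3 parent libraries in light were the lowest of all 11, and the deletion libraries in light overlapped with the parent libraries in darkness. Deletion replicate 1 in darkness was the only library of its group below 0. For the 490 gene IDs with a negative interaction the medians were -0.325, -0.34 and -0.46 in the deletion libraries in light, and 0.39, 0.39 and 0.38 in the parent libraries in light. In darkness they were 0.24, 0.20 and 0.27 in the deletion libraries and -0.295 and -0.16 in the parent libraries. These sets were chosen by the contrast itself, so their levels are a description and carry no test.

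The same sets held a modest share of all reads. Gene IDs with a positive interaction took 9.03% to 9.59% of the counts in the deletion libraries in light and 4.99% to 5.21% in the parent libraries in light. In darkness the shares were 6.33% to 7.47% for the deletion strain and 7.19% to 8.83% for the parent. Those with a negative interaction took 2.82% to 3.10% in the deletion libraries and 5.28% to 5.99% in the parent libraries in light, and in darkness 4.57% to 5.34% in the deletion libraries and 3.18% to 3.83% in the parent libraries. Within light the strains had separate ranges for both sets, and in darkness they overlapped for the positive set alone.

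**Figure D2:**
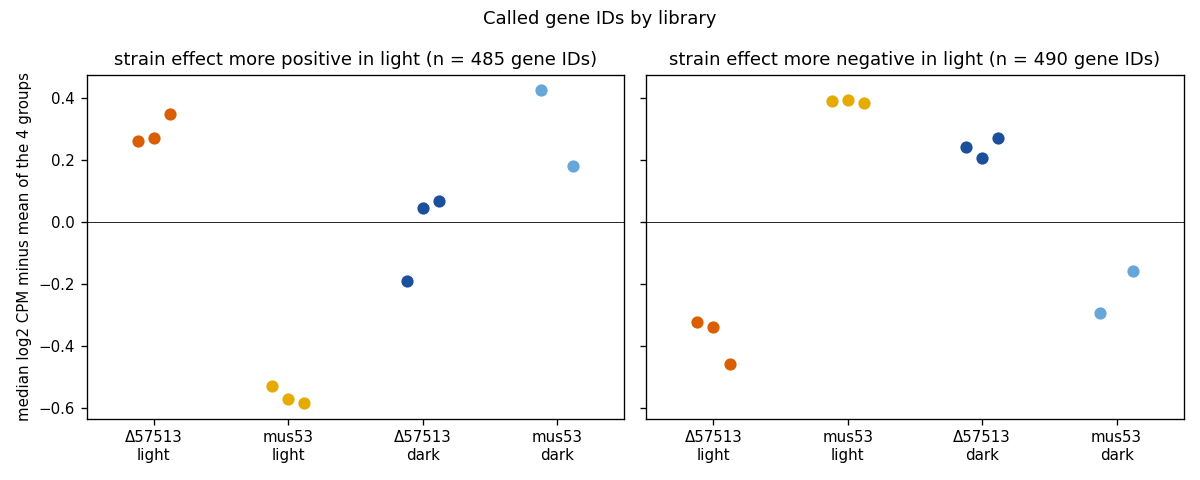
Median log2 CPM of the passing gene IDs in each library, relative to the mean of the 4 groups, for positive interactions (left, 485 gene IDs) and negative interactions (right, 490), with 1 point per library. In light the deletion libraries lie at 0.26 to 0.35 and the parent libraries at -0.53 to -0.585 in the left panel, and the order is turned round in the right panel.

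The strain effects behind the 975 interactions took several shapes, which were read from the fitted strain effects in light and in darkness. For 227 gene IDs the strains differed mainly in light (log2 effect of at least 1 in size, and under 0.5 in darkness), with 144 higher and 83 lower in the deletion strain. The converse, a difference mainly in darkness, was found for 90 gene IDs, 63 of them higher and 27 lower in the deletion strain in darkness. Another 220 had effects of at least 0.5 in opposite directions, of which 75 were higher in the deletion strain in light and lower in darkness, and 145 lower in light and higher in darkness. In 77 the effects had the same direction and at least 0.5 in both, with the larger effect in light for 58. The remaining 361 held smaller effects. Read against all tested gene IDs of the same shape, those passing were 43.1% of 527 with a difference mainly in light, 24.3% of 371 with one mainly in darkness and 43.1% of 511 with opposite effects. They were 5.97% of 1290 with effects in the same direction and 5.69% of the other 6341. These classes use values of the same fit as the test, so their sizes are given as a description.

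Counts in these classes moved with single libraries. When parent replicate 1 in darkness was omitted there were 122 gene IDs with a difference mainly in light, 48 with one mainly in darkness and 84 reversed. The number with a difference mainly in darkness was 58 on omission of deletion replicate 1 in light, 53 on omission of deletion replicate 2 in light, and 56 without parent replicate 2 in light. Reversed effects numbered 146 without deletion replicate 3 in light, and effects of the same direction numbered 49 without deletion replicate 2 or 3 in light. Other omissions raised the counts. Without deletion replicate 1 in darkness there were 239 mainly in light, 110 mainly in darkness, 248 reversed and 103 in the same direction.

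**Figure D3:**
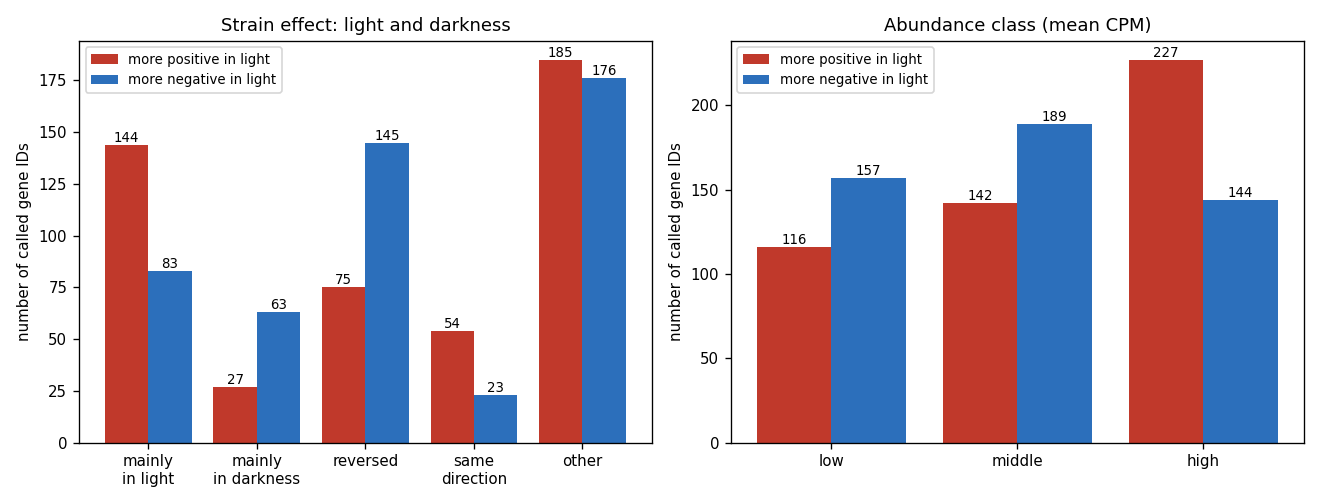
Number of passing gene IDs with a more positive (red) and a more negative (blue) strain effect in light, by the shape of the strain effects (left) and by mean abundance (right). Negative interactions prevail among reversed effects (145 against 75), and positive ones at high abundance (227 against 144).

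Among gene IDs whose strains differed mainly in light, TrB1809W had 94.9, 90.0 and 117.2 CPM in the deletion strain in light, against 1.24, 3.16 and 2.35 CPM in the parent in light. In darkness it had 54.6, 106.1 and 114.4 CPM in the deletion strain and 169.2 and 85.6 CPM in the parent. Parent libraries in light thus stood apart from the other 3 groups, which overlapped one another, and the log2 interaction was 5.96 (SE 0.58, edgeR adjusted p = 0.00105). TrB0188C had a like pattern, at 191.0, 189.7 and 160.8 CPM in the deletion strain and 12.6, 6.56 and 4.03 CPM in the parent in light. Its dark libraries held 73.0, 80.0 and 86.7 CPM in the deletion strain and 91.7 and 41.5 CPM in the parent, which overlapped (log2 interaction 4.28, SE 0.56, edgeR adjusted p = 0.00273). Compared with darkness, TrB0188C was higher in light in the deletion strain, by a log2 effect of 1.18, and lower in the parent, at -3.10. Neither interaction missed the threshold in any of 26 alternatives.

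TrE1045W showed the opposite sign, with 3.33, 3.94 and 0.622 CPM in the deletion strain in light against 60.6, 44.3 and 35.9 CPM in the parent in light. Its dark libraries overlapped, at 8.29, 3.64 and 3.5 CPM in the deletion strain and 1.68 and 6.59 CPM in the parent. The higher level in light was seen in the parent, and the log2 interaction was -4.47 (SE 0.99, edgeR adjusted p = 0.0229, or 0.0839 without parent replicate 1 in darkness). TrA0929W was the most abundant of the named gene IDs in darkness, at 10081.9, 3972.1 and 4989.1 CPM in the deletion strain and 3517.7 and 6499.6 CPM in the parent. In light its levels were 61.8, 52.6 and 34.9 CPM in the deletion strain and 288.5, 955.3 and 1291.3 CPM in the parent. Both strains were lower in light, by a log2 effect of -6.99 in the deletion strain and -2.57 in the parent, and the interaction was -4.43 (SE 0.88, edgeR adjusted p = 0.0147, or 0.0948 without parent replicate 1 in darkness).

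In the class with a difference mainly in darkness, TrC1211C had 10.4, 9.80 and 7.98 CPM in the deletion strain and 10.8, 9.96 and 10.2 CPM in the parent in light. In darkness it had 4.71, 10.5 and 10.7 CPM in the deletion strain, while the parent had 90.2 and 73.3 CPM. The parent in darkness was thus the one high group, and the log2 interaction was 3.11 (SE 0.40, edgeR adjusted p = 0.00235). TrB0322W had 130.9, 133.5 and 151.5 CPM in the deletion strain and 203.7, 128.6 and 165.6 CPM in the parent in light. Its dark values were 29.3, 89.6 and 85.4 CPM in the deletion strain, compared with 586.1 and 429.9 CPM in the parent. The deletion strain had its lowest values in darkness and the parent its highest (log2 interaction 2.64, SE 0.54, edgeR adjusted p = 0.0170, or 0.0817 without parent replicate 1 in darkness).

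TrG0034W and TrF1073C were high in the deletion strain in darkness and low in the other 3 groups. TrG0034W had 2.16, 4.95 and 4.56 CPM in the deletion strain and 1.92, 4.01 and 4.48 CPM in the parent in light, and in darkness 87.4, 267.3 and 139.6 CPM in the deletion strain, while the parent had 2.14 and 1.03 CPM. The log2 strain effect was 0.16 in light and 6.68 in darkness, and the interaction was -6.52 (SE 0.86, edgeR adjusted p = 0.00273), which missed the threshold with limma's voom at an adjusted p of 0.052. TrF1073C had 1.17, 1.51 and 1.04 CPM in the deletion strain and 1.47, 1.58 and 0.336 CPM in the parent in light, and in darkness 71.7, 45.1 and 52.0 CPM in the deletion strain and 3.95 and 1.76 CPM in the parent. Light libraries of the strains overlapped for both gene IDs and dark libraries did not. In light, TrF1073C had only 10 to 15 counts per library in the deletion strain and 3 to 13 in the parent. TrG0034W had 24 to 49 and 17 to 40. At so few counts the overlap does not show that the strains were alike in light. The TrF1073C interaction was -4.14 (SE 0.71, edgeR adjusted p = 0.00784) and passed in all 26 alternatives.

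**Figure D4:**
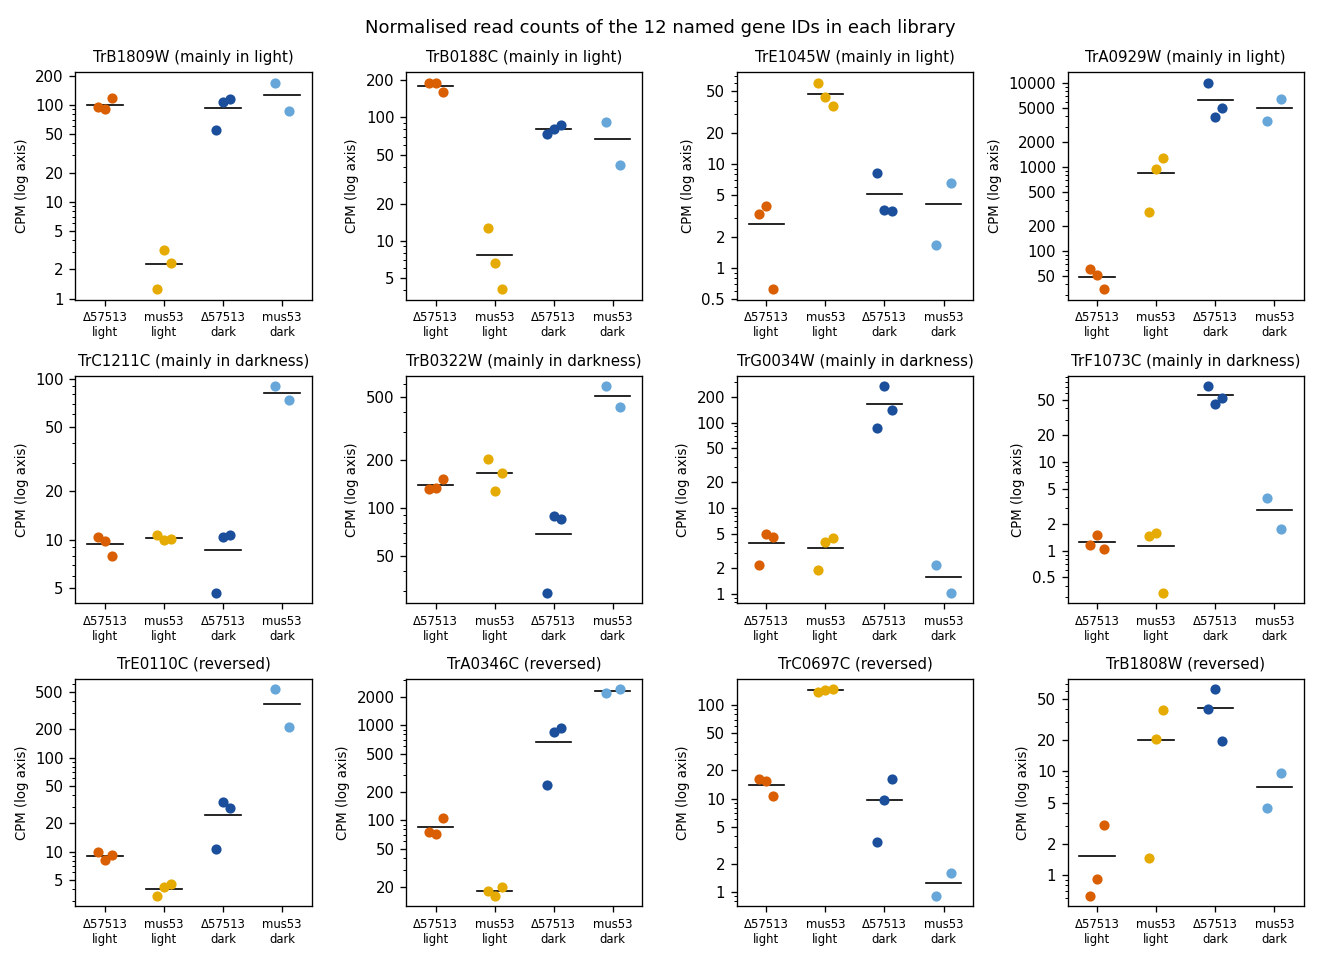
Normalised read counts (CPM) on a log axis for the 12 named gene IDs, with 1 point per library and a black line at the mean of each group. The top row differs between strains mainly in light, the middle row mainly in darkness, and in the bottom row the order of the strains is reversed, as in TrC0697C, where the parent is the higher strain in light and the lower one in darkness.

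The most negative interaction among reversed effects that met the naming rule was that of TrC0697C. It had 16.0, 15.5 and 10.7 CPM in the deletion strain in light, against 139.3, 145.8 and 148.6 CPM in the parent, and in darkness 3.40, 9.73 and 16.1 CPM in the deletion strain, while the parent had 0.906 and 1.61 CPM. The deletion strain kept overlapping levels in both conditions, while the parent spanned a log2 light effect of 6.85 (log2 interaction -6.31, SE 0.78, edgeR adjusted p = 0.00227, past the threshold in all 26 alternatives). TrE0110C had the opposite sign, with 9.82, 8.18 and 9.23 CPM in the deletion strain and 3.38, 4.25 and 4.48 CPM in the parent in light. In darkness it reached 10.7, 34.1 and 28.8 CPM in the deletion strain and 535.5 and 214.3 CPM in the parent. The strains were apart in both conditions, and the interaction was 5.10 (SE 0.69, edgeR adjusted p = 0.00309).

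TrA0346C was also lower in light in both strains, with 76.1, 71.0 and 106.1 CPM in the deletion strain and 18.0, 16.0 and 19.8 CPM in the parent in light. Its dark values were 232.8, 850.6 and 926.8 CPM in the deletion strain and 2162.3 and 2401.7 CPM in the parent. The log2 light effect was -2.99 in the deletion strain and -6.99 in the parent, an interaction of 4.0 (SE 0.64, edgeR adjusted p = 0.00606). TrB1808W, whose serial number adjoins that of TrB1809W, had the opposite sign to its neighbour in the interaction. On the other side of TrB1809W in the series, TrB1810C, named here after its values were seen, passed with the same sign as TrB1809W, at a log2 interaction of 2.22 (SE 0.29, edgeR adjusted p = 0.00252). TrB1808W had 0.631, 0.909 and 3.01 CPM in the deletion strain and 1.47, 20.3 and 38.7 CPM in the parent in light, where the strains overlapped through parent replicate 1. In darkness it had 40.1, 61.9 and 19.6 CPM in the deletion strain and 4.47 and 9.60 CPM in the parent. Its log2 interaction of -6.28 (SE 1.54, edgeR adjusted p = 0.0341) did not pass in 13 of 26 alternatives. It failed on omission of each single library other than parent replicate 1 in light and deletion replicate 3 in darkness, and the highest edgeR adjusted p was 0.162.

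Read as responses to light, the interactions more often had the larger response in the parent. The log2 light effect had its larger size in the deletion strain for 402 and in the parent for 573 of the 975 gene IDs, or 58.8% in the parent, where that share was 50.9% of all tested gene IDs. For 115 gene IDs the light effect was at least 1 in size in the deletion strain and under 0.5 in the parent, 42 of them higher and 73 lower in light in the deletion strain. For 156 it was at least 1 in the parent and under 0.5 in the deletion strain, 61 higher and 95 lower in light in the parent. Opposite light effects of at least 0.5 were found for 170 gene IDs, of which 79 were higher in light in the deletion strain and lower in the parent, and 91 the converse. A further 225 had effects of at least 0.5 in the same direction in both strains, with the larger effect in the deletion strain for 88 and in the parent for 137. Of all tested gene IDs with the same pattern of light effects, those passing made up 31.4% of 366 (mainly in the deletion strain), 40% of 390 (mainly in the parent), 49.6% of 343 (opposite) and 9.49% of 2370 (same direction). The class with the most passing gene IDs of these 4 thus had the lowest share passing. These classes too rest on the fit of the test and are a description. The light effects of single strains include any difference between the light and dark runs of library numbers, which the interaction removes where both strains share it.

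The size of the strain effect was larger in light for 668 of the 975 gene IDs, 68.5%, against 56.4% of all tested gene IDs. Over the 26 alternatives this share lay between 58.8%, without parent replicate 2 in darkness, and 72.9%, in the test against a 2-fold interaction. The share with the larger light effect in the parent lay between 54.2% and 63.4%. The numbers themselves moved with single libraries, to 271 gene IDs with the larger strain effect in light and 231 with the larger light effect in the parent without parent replicate 1 in darkness. Without deletion replicates 1, 2 and 3 in light they were 436, 393 and 375, and 362, 334 and 335. Without parent replicate 2 in light they were 412 and 361. The shares of all tested gene IDs, 56.4% and 50.9%, come from the fit of all 11 libraries and were not worked out for the alternatives. Both shares among passing gene IDs use the fit that chose these gene IDs, so they are a description.

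A difference of fold changes can arise from a strain effect of constant direction that varies in size, or from strains that change places. The strain with the higher mean level in light was the lower one in darkness for 685 of the 975 gene IDs, 70.3%, against 3632 of all 9040, 40.2%. For 354 of the 975, 36.3%, the strains had separate CPM ranges in both conditions, in opposite order, against 537 of 9040 (5.94%). Of the 354, 156 were higher in the deletion strain in light and lower in darkness, and 198 were lower in light and higher in darkness. Opposite strain effects enlarge the interaction by which the 975 were chosen. Higher shares than among all tested gene IDs thus follow from the choice, and they are given as a description. On a linear scale of CPM the interaction had the same sign as on the log2 scale for 948 of the 975 gene IDs. The 27 exceptions were gene IDs whose interaction depends on the scale in which it is measured, 25 of 485 positive and 2 of 490 negative ones.

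A single group was taken to stand apart if it lay at least 1 log2 unit from the other 3, which lay within 1 unit of each other. No group stood apart in this way for 754 of the 975 passing gene IDs, 77.3%, and for 8431 of all 9040 tested. A group that stands apart tends to enlarge the interaction by which the 975 were chosen, so the counts are a description. The counts that follow are first those of passing gene IDs. The deletion strain in light was the group apart for 23 gene IDs as the high group and for 30 as the low one. The parent in light was the high group for 34 and the low group for 73. In darkness, the deletion strain was the high group for 23 and the low group for 6, and the parent the high group for 15 and the low group for 17. Of all tested gene IDs, the deletion strain in light was the high group for 69 and the low group for 97, and the parent in light the high group for 66 and the low group for 133. In darkness the deletion strain was the high group for 108 and the low group for 31, and the parent the high group for 58 and the low group for 47.

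The balance of directions varied with abundance. The tested gene IDs were divided into 3 classes of nearly equal number by their mean CPM over the 11 libraries. Among the 3014 of lowest level, up to 16.5 CPM, 273 passed (9.06%), 116 with a positive and 157 with a negative interaction. In the middle class 331 of 3013 passed (11%), 142 positive and 189 negative. Among the 3013 of highest level, above 70.1 CPM, 371 passed (12.3%), 227 positive and 144 negative. Positive interactions outnumbered negative ones in the highest class, and were outnumbered in the lowest class, in each of the 26 alternatives. These alternatives reuse the same libraries, and the difference in balance between the classes was not tested. The balance of signs over all tested gene IDs was not worked out for each class. In the highest class the balance also moved with the scaling, from 188 positive and 145 negative with upper-quartile scaling to 261 and 129 with TMMwsp, a variant of TMM. The numbers were smallest among single omissions without parent replicate 1 in darkness, at 94 positive and 58 negative in the highest class and 40 and 49 in the lowest. Without deletion replicates 1, 2 and 3 in light the highest class held 153, 128 and 125 positive and 94, 84 and 85 negative gene IDs, and without parent replicate 2 in light 134 and 90. The lowest class then held 66, 66 and 62 positive and 87, 78 and 79 negative ones, and without parent replicate 2 in light 73 and 87. It held 77 positive ones without deletion replicate 2 in darkness and 101 negative ones without deletion replicate 3 in darkness. Median log2 strain effects among positive interactions were 2.10 in light and -0.26 in darkness in the lowest class, and 0.62 and -0.22 in the highest. Among negative interactions they were -1.21 in light and 1.03 in darkness in the lowest class, and -0.64 and 0.28 in the highest.

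Passing gene IDs were spread over all 7 lettered ID series, at 9.71% to 12.1% of the tested gene IDs in each. Positive interactions outnumbered negative ones in series A (103 and 87), B (105 and 86), E (64 and 51) and G (69 and 50). They were outnumbered in series C (55 and 82), D (52 and 63) and F (37 and 71). The difference in balance between series was not tested. Of 7757 pairs of tested gene IDs with consecutive serial numbers, both members passed in 137 (1.77%). Their interactions had the same direction in 100 pairs and opposite directions in 37. At least one neighbour in the series passed in the same direction for 191 of the 942 passing gene IDs that had a tested neighbour, 20.3%. Over all tested gene IDs 10.8% passed, 5.37% with a positive and 5.42% with a negative interaction. Whether neighbours passed together more often than other gene IDs was not tested. The longest run held 4 consecutive gene IDs, all with a positive interaction, and of the 8 runs of at least 3 gene IDs, 6 were positive and 2 negative. The IDs give only an order within a series, and no coordinates were used. Reads shared by overlapping or near-identical neighbours cannot be told apart here.

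**Figure D5:**
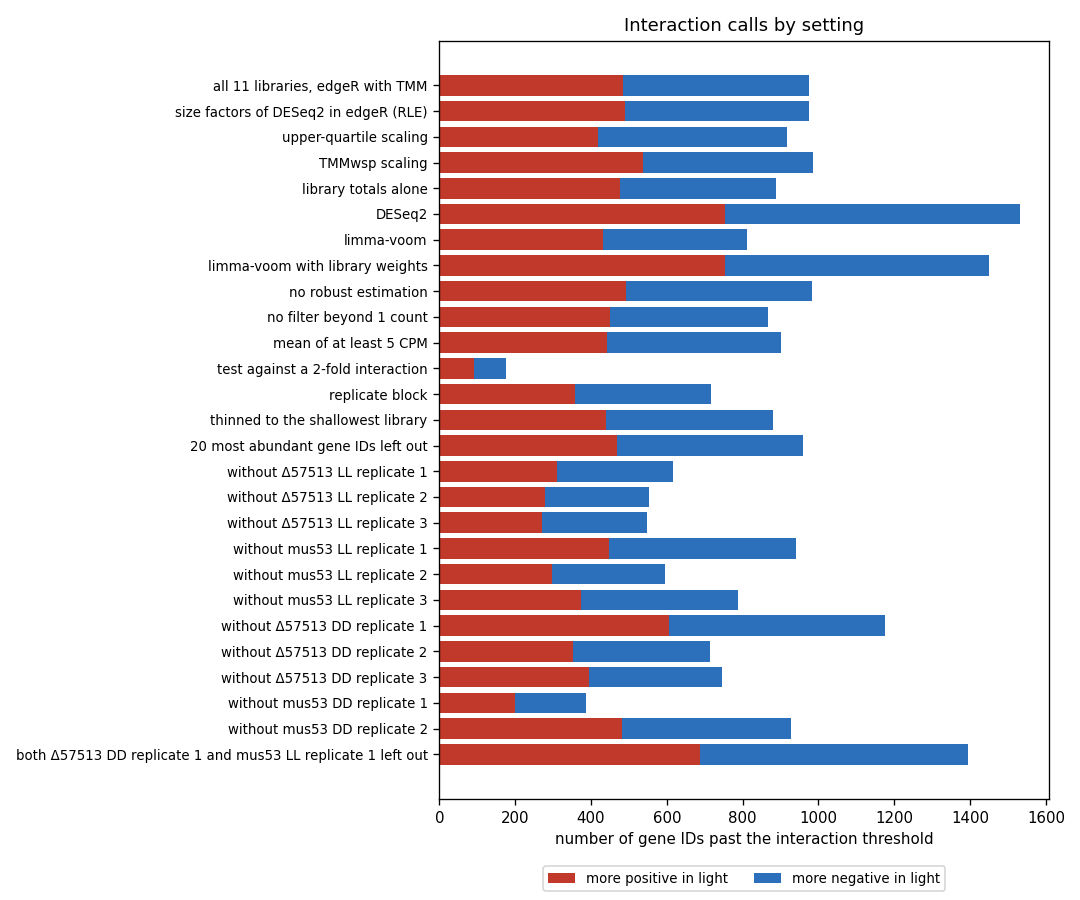
Number of gene IDs past the interaction threshold with a more positive (red) and a more negative (blue) strain effect in light, for the fit of all 11 libraries (top bar, 975) and each alternative. Totals run from 177 in the test against a 2-fold interaction to 1532 with DESeq2, with both directions present at similar numbers in every bar.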

How the data were processed

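RNA of mycelium was sequenced in 11 libraries, extracted with a plant RNA kit and, per the labels' protocols, depleted of ribosomal RNA and made into stranded libraries. The deposited values are raw counts per gene ID, whole numbers with no normalization by the authors. HISAT2 2.2.1 is named per the submitters' processing notes. Which strand setting was used in counting, and how reads with several matches were handled, is not given in the sources used. Another mutant named in the design text was not analysed here.

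Each column was assigned to the sample whose label holds its alignment name. Of 10879 gene IDs, 317 had 0 counts throughout, and filterByExpr in edgeR 4.0.16 (R 4.3.3) kept 9040. A quasi-likelihood model with 4 group means, robust estimation and TMM scaling was fitted to all 11 libraries. One estimate of the spread served all groups. P-values were Benjamini-Hochberg adjusted over the 9040 gene IDs for 1 contrast, with a threshold of 0.05. Each SE is the fitted log2 value divided by the root of its F statistic. Log2 CPM used a prior count of 2. CPM values use scaled library sizes, and 3 counts correspond to 0.179 to 0.364 CPM in a single library. The fit was tested on simulated counts with 200 changed gene IDs.

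In each of 3 shapes, the text names the 2 most positive and 2 most negative gene IDs among those that passed, were completely separated, averaged at least 5 CPM and reached 1 CPM in each group. The contrast, the shapes and this rule were chosen with earlier results of these data known. Alternatives were 4 scalings, DESeq2 1.42.0, voom in limma 3.58.1 with and without library weights, no robust estimation, 2 other filters, a test against a 2-fold interaction, a replicate block, thinning to 8020351 counts, omission of the 20 most abundant gene IDs, of each library, and of 2 libraries together.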

Additional observations from a re-analysis of the deposited data

Results flagged for a closer look

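The strain effect differed between light and darkness, by the interaction test itself, for 975 gene IDs. Among the named ones, the log2 interaction was 5.96 for TrB1809W, 4.28 for TrB0188C, -4.47 for TrE1045W and -4.43 for TrA0929W, whose strains differed mainly in light. It was 3.11 for TrC1211C, 2.64 for TrB0322W, -6.52 for TrG0034W and -4.14 for TrF1073C, whose strains differed mainly in darkness. Where the strain effects were reversed it was 5.10 for TrE0110C, 4.0 for TrA0346C, -6.31 for TrC0697C and -6.28 for TrB1808W. No group held the 4 libraries needed to look for a single library that stands apart in a gene ID.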

How the results depend on the processing

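All passing gene IDs kept their sign under the other scalings, DESeq2, voom and the replicate block. The total was 1532 with DESeq2 (753 positive, 779 negative), which also called 974 of the 975, and 177 in the test against a 2-fold interaction (92 and 85). With voom and library weights, 754 were positive. Leaving out 1 library gave 386 to 1175 in all, 200 to 606 positive and 186 to 569 negative. No other total moved by over 1.5 times. Of the 12 named gene IDs, 7 passed in all 26 alternatives. The 2-fold test also removed TrE1045W, TrA0929W, TrB0322W and TrB1808W (edgeR adjusted p = 0.0842, 0.0534, 0.107 and 0.112), as a stricter null does. Over all alternatives the adjusted p (edgeR, DESeq2 or limma) ran from 4.11e-05 to 0.0842 for TrE1045W, 1.64e-07 to 0.0948 for TrA0929W, 2.41e-05 to 0.107 for TrB0322W, 5.13e-16 to 0.052 for TrG0034W and 0.000782 to 0.162 for TrB1808W. Gene IDs with a difference mainly in light, mainly in darkness, reversed or in the same direction numbered 60, 17, 76 and 24 in the 2-fold test, in which 129 had the larger strain effect in light and 113 the larger light effect in the parent (867 with DESeq2). DESeq2 gave 146 mainly in darkness and 145 in the same direction, and omission of 2 libraries together 150 in the same direction. In the class of highest abundance, positive and negative calls numbered 29 and 23 in the 2-fold test, 375 and 224 with voom and library weights, and 341 and 219 without 2 libraries, and positive ones 370 with DESeq2. In the lowest class they numbered 25 and 33 in the 2-fold test and 73 and 97 with the replicate block, with 77 positive under a mean of at least 5 CPM, and 267 and 104 negative with DESeq2 and voom. The cause of the other changes was not tested.

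Deviations of same-numbered libraries from their group means had correlations of -0.378 to 0.261 across gene IDs. Libraries of different number had -0.383 to 0.383. Because these deviations are taken within groups of 2 or 3 libraries, they cannot show whether the numbers pair samples. With the replicate block, 716 gene IDs passed, 641 of them among the 975, and TrB1808W did not (edgeR adjusted p = 0.0543). Thinned to the depth of the shallowest library, 881 passed. With 2 parent libraries in darkness and 3 in each other group, strain effects in darkness rest on fewer samples.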
